A study of Homo sapiens with 24 samples.

Results

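The subunits of the mitochondrial respiratory chain and ATP synthase were followed by poly(A) RNA sequencing in HepG2, a cell line from a human liver carcinoma. The members were chosen by gene symbol: the mitochondrially encoded subunits of the complexes and the nuclear subunits of complexes I to V, without pseudogenes and with at least 240 counts summed over the 24 libraries. Of 60683 genes in the table, 120 had a matching symbol, 23 of these were pseudogenes and 7 fell below the minimum, which left 90 genes. They comprised 13 mitochondrially encoded and 77 nuclear encoded subunits: 7 and 36 of complex I, 0 and 4 of complex II, 1 and 9 of complex III, 3 and 11 of complex IV (NDUFA4, first named as a subunit of complex I, was placed there), and 2 and 17 of complex V.

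All cells carried a CRISPR/Cas9 knockout of the endogenous glucocorticoid receptor gene NR3C1 and a lentiviral, doxycycline-inducible cDNA of a Ty1-tagged receptor. The receptor was wild type (WT), K154R, an acetylation-deficient form, or K154Q, an acetylation mimic. Doxycycline at 0.3 to 1 µg/mL was given for 24 h, with the dose set to match receptor protein, then the cells were held for 24 h in charcoal-stripped serum without it, and for the last 6 h they received ethanol vehicle or 1 µM dexamethasone (Dex), a synthetic glucocorticoid. The 6 groups, WT, K154R and K154Q each with vehicle or Dex, held 4 libraries each. Per the labels the replicates stand for 2 experiments with 2 transductions each, without saying which number belongs to which.

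Oxidative phosphorylation passes electrons from NADH through complex I, and from succinate through complex II, to ubiquinone, complex III, cytochrome c and complex IV, where oxygen is reduced. Complexes I, III and IV pump protons across the inner membrane, and complex V, the ATP synthase, lets them return to make ATP. The subunits come from separate genomes: a core of hydrophobic proteins is transcribed from mitochondrial DNA as long polycistronic RNAs, and all of complex II and the remaining subunits are transcribed in the nucleus and imported. Hepatocytes are rich in mitochondria, and glucocorticoids are known regulators of energy metabolism in the liver.

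Library totals ran from 23863672 to 42072021 counts, and all 90 members passed the filter on low counts, which kept 16196 genes. NR3C1 counts, which the added cDNA can supply, lay between 69.6 and 113 CPM in every library (CPM are counts scaled to a common library total). Reads of the cDNA and of the edited gene cannot be told apart. Of 9 hepatocyte markers all exceeded 10 CPM in every library, with sums of 44055 to 57029 CPM over the 6 groups. Of 10 markers of leukocytes, endothelium, fibroblasts, muscle and glia, 3 (PECAM1, COL1A1, CKM) exceeded 1 CPM in any library, the sum was 2.72 to 5.22 CPM, and PTPRC was at 0 throughout. FKBP5, a direct glucocorticoid target, rose in the mean response to Dex. Its level was 52.1 ± 1.44 CPM with vehicle and 102 ± 7.68 with Dex in WT, 50.2 ± 5.91 and 113 ± 12.4 in K154R, and 51.3 ± 4.24 and 106 ± 11.1 in K154Q (SD, n = 4).

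The 13 mitochondrial mRNAs lie close together on the circular mitochondrial genome, and neighbours overlap at 3 places. MT-ATP6 and MT-CO3 share a single base (chrM:9207). The other overlaps are shown because these pairs are carried on bicistronic mRNAs and reads inside an overlap belong to either gene. MT-ATP8 and MT-ATP6, small hydrophobic subunits of the ATP synthase, share 46 bases of the heavy-strand transcript (chrM:8527-8572, GRCh38, plus strand), and MT-ND4L and MT-ND4, membrane subunits of complex I, share 7 bases (chrM:10760-10766). Capitals mark the start codon of the downstream gene and the stop codon of the upstream gene.
MT-ATP8 with MT-ATP6: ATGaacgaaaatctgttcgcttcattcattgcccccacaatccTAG
MT-ND4L with MT-ND4: ATGcTAA
MT-ND6 is the 1 mRNA of the light strand (chrM:14149-14673, minus strand). It lies directly beside the annotated end of MT-ND5 (chrM:12337-14148, plus strand), and in human cells it largely lacks a poly(A) tail. The strand setting of the counting was not given in the sources used here, so reads of the heavy strand over MT-ND6 cannot be told apart from its own.

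Per kb of gene, the mRNAs of complex IV and of MT-ND4 were the most abundant. Over all 24 libraries MT-CO2 stood at 14380 ± 2103 CPM per kb (SD, n = 24), MT-CO1 at 11246 ± 1622, MT-ND4 at 10630 ± 1645 and MT-CO3 at 9172 ± 1158. MT-CO1 to MT-CO3 encode the catalytic core of cytochrome c oxidase. MT-ATP6 followed at 6634 ± 1034, MT-ND1 at 5971 ± 981, MT-ND4L at 5337 ± 874, MT-ND2 at 4089 ± 722 and MT-ND3 at 3474 ± 457 CPM per kb. MT-CYB, the cytochrome b of complex III, stood at 3337 ± 502, MT-ND6 at 2658 ± 579, MT-ATP8 at 2424 ± 420 and MT-ND5 at 2345 ± 565. MT-ATP8 (207 bases) and MT-ND4L (297 bases) share their mRNAs with MT-ATP6 and MT-ND4. Their gaps to these partners per kb therefore cannot be read as differences in mRNA abundance. Of the 12 neighbours in this order only MT-CO3 and MT-ATP6 were apart by more than their SDs. Within libraries the order held better: MT-CO2 exceeded MT-CO1 in 24 of 24 libraries, MT-CO1 exceeded MT-ND4 in 16, and MT-ATP8 exceeded MT-ND5 in 13. The spread between libraries was largely shared by these genes and is described further on.

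**Figure D1:**
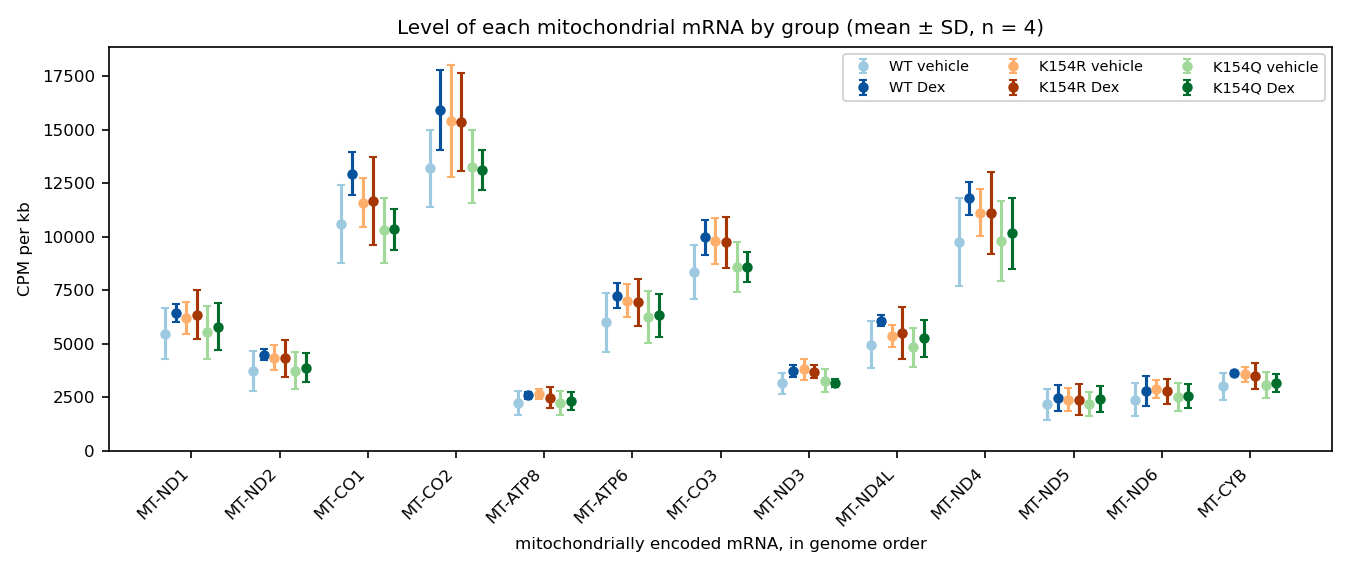
Level of each of the 13 mitochondrially encoded mRNAs (x axis, in genome order) in CPM per kb of gene (y axis), as the mean with SD of the 4 libraries of each of the 6 groups. On this scale MT-CO2, MT-CO1, MT-ND4 and MT-CO3 stand highest in every group, and MT-ND5 and MT-ATP8 are among the lowest.

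Nuclear genomes hold old insertions of mitochondrial DNA, and some of these copies are listed as genes of their own in the table. MTATP6P1 (671 of 681 bases identical to MT-ATP6, 98.5%) held 878725 counts over all libraries against 3432585 of MT-ATP6, that is 24.3% to 27.7% of MT-ATP6 per library (median 25.5%). MTND2P28 (98.4% identical to MT-ND2 over 1042 bases) held 4.03% to 4.62% of the counts of MT-ND2. For MTCO1P12 the share was 0.109% to 0.135% of MT-CO1, and for MTCO2P12 and MTCO3P12 it stayed at or below 0.0147% and 0.0076%. These shares were narrow across libraries. How reads that match both a gene and its copy were counted was not given in the sources used here, so the level of MT-ATP6 and, less so, of MT-ND2 is uncertain by these shares.

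The nuclear subunits were far lower. ATP5F1B, the catalytic beta subunit of the ATP synthase, was the highest per kb at 314 ± 25.1 CPM per kb, and its highest library (375) lay below the lowest value of any mitochondrial mRNA in any library (1454 CPM per kb, MT-ATP8). Lengths are those of the table, which for 39 members equal the union of all exons in GENCODE 29, so genes with many annotated exons read low on this scale. In CPM, without scaling by length, the nuclear members ran from 0.482 ± 0.152 for NDUFA7 to 703 ± 56.1 for ATP5F1B.

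Complex I oxidises NADH. Its flavin-binding subunit NDUFV1 stood at 40.9 ± 5.69 CPM per kb and its largest iron-sulfur subunit NDUFS1 at 14.6 ± 0.687, against 190 ± 26.6 for the accessory subunit NDUFS5, the highest of the 36. In complex II, which is encoded wholly in the nucleus, the iron-sulfur subunit SDHB stood at 26.9 ± 2.86 CPM per kb, the membrane anchors SDHC and SDHD at 18.6 ± 1.28 and 18.1 ± 1.91, and the flavoprotein SDHA at 2.701 ± 0.200. In complex III the hinge protein UQCRH stood at 114 ± 11.4 CPM per kb and the core proteins UQCRC1 and UQCRC2 at 94.1 ± 14.2 and 73.8 ± 4.47. These gaps between subunits of 1 complex rest in part on annotated length, since SDHA has 8765 bases and NDUFS1 12174 in the table. In CPM, NDUFS1 (178) exceeded NDUFS5 (104). SDHA remained the lowest of complex II in CPM at 23.7, against 62.6 for SDHB, 69.1 for SDHC and 50.5 for SDHD.

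Several subunits exist as isoforms of different tissues, and the widely expressed forms held nearly all the counts. COX4I1 had 51.5 ± 6.59 CPM per kb against 0.007 ± 0.017 for COX4I2 (4 counts in all), COX6A1 41.9 ± 7.04 against 0 counts for the heart and muscle form COX6A2, and COX7A2 50.9 ± 7.38 against 0.119 ± 0.095 for the muscle form COX7A1. COX6B1 (88.0 ± 11.9 CPM per kb), COX7B (20.9 ± 2.97) and COX8A (189 ± 24.2) stood likewise against COX6B2 (27 counts in all), COX7B2 (0 counts) and COX8C (4 counts), which are testis forms. The minor forms, with ATP5MGL at 51 counts, are the 7 genes just outside the count minimum, and the lowest member inside it was NDUFA7 (0.482 CPM).

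Near-identical copies limit some values. The coding sequences of UQCRH and its intronless copy UQCRHL differ at 4 of 273 bases (98.5% identical). UQCRHL stood at 2.71 ± 0.439 CPM per kb against 114 ± 11.4 for UQCRH. Any part of the reads assigned to the copy, up to all of them, may belong to the parent, which was not tested. ATP5MC1, ATP5MC2 and ATP5MC3 encode the same mature c subunit of the ATP synthase rotor. Over the coding end that holds the mature protein they were 88.9% (ATP5MC1 with ATP5MC2) and 81.3% (either with ATP5MC3) identical in sequence. The 3 stood at 46.5 ± 4.27, 26.4 ± 3.14 and 49.1 ± 4.54 CPM per kb.

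Several members with few counts shared their exons with other annotated genes. On the same strand, other genes of GENCODE 29 cover 339 of 339 coding bases of NDUFA7, 747 of 819 of NDUFV2 (91.2%), 516 of 606 of NDUFB8 (85.1%) and 315 of 612 of NDUFA13 (51.5%). These 4 complex I subunits read 0.482 ± 0.152, 1.06 ± 0.272, 11.3 ± 1.41 and 1.76 ± 0.227 CPM. Whether reads in such overlaps were dropped by the counting was not given in the sources used here, and the effect on these levels was not tested.

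The nuclear genes were compared with all promoters for short motifs, since NRF1, ETS-family factors and YY1 are known binders of such promoters. RefSeq promoter windows (GRCh38.p14, 250 bases before to 50 after the start) were matched for 63 of the 77 nuclear members. GCGCANGCG, an NRF1-type motif, was found on either strand in 21 of 63 (33.3%) against 8.05% of all 27305 promoters. CCGGAAG, an ETS-type motif, was found in 20 (31.7%) against 10.7%, and AAGATGGC, a YY1-type motif, in 11 (17.46%) against 3.03%. At least 1 of these 3 was found in 40 of 63 (63.5%) against 19.2%. ACANNNTGT, the glucocorticoid receptor type of motif, was found in 2 (3.17%, COX5A and NDUFB2) against 5.45%, and GGGGCGGGG, an Sp1-type motif, in 10 (15.9%) against 16.0%. The median GC content was 61.3% against 58.3%. A match is a run of letters and says nothing of binding in these cells.

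Promoters of 5 members, from complexes II to V, show these motifs in place. They are 210 bases from 180 before to 30 after the RefSeq start, written along the gene's strand, with the motifs of the NRF1, ETS or YY1 type in capitals. ATP5PF (coupling factor 6 of the ATP synthase stalk, chr21:25735025-25735234, minus strand) holds 1 of each type. UQCRC1 (chr3:48609617-48609826, minus strand) holds 2 NRF1-type motifs, COX5B (a nuclear subunit of complex IV, chr2:97645882-97646091, plus strand) 2 of the ETS type, ATP5PB (subunit b of the stalk, chr1:111449284-111449493, plus strand) 1 YY1-type motif read on the opposite strand, and SDHB (chr1:17054003-17054212, minus strand) 1 ETS-type and 1 YY1-type motif. The longer window of UQCRC1 also holds a YY1-type motif, which is not whole within the 210 bases and is unmarked.
ATP5PF: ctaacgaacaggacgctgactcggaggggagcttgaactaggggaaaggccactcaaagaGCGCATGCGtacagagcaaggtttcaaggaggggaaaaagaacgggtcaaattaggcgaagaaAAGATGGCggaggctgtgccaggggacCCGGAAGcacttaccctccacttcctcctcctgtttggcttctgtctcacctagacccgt
UQCRC1: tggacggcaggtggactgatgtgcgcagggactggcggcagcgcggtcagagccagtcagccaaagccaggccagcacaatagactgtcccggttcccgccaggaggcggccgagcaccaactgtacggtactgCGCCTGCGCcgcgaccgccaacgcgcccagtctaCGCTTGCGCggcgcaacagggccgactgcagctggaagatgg
COX5B: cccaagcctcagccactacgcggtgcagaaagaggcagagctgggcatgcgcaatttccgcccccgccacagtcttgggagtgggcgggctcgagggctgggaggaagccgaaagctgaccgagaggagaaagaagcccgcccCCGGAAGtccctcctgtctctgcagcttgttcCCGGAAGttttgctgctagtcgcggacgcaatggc
ATP5PB: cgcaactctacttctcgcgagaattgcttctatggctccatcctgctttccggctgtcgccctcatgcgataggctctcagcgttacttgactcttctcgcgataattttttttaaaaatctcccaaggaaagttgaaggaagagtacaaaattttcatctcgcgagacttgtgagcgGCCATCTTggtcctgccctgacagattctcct
SDHB: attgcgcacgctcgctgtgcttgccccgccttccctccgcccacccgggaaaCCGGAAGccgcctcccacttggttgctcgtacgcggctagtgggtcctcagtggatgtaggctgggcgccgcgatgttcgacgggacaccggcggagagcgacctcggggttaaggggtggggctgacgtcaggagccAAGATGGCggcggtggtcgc

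The mitochondrial mRNAs took 7.61% ± 0.960 of all counts (SD, n = 24) and the 77 nuclear subunits 0.775% ± 0.070, so that the 13 genes held 9.96 times the counts of the 77 on average, from 5.86 to 12.8 times. For replicates 1 to 4 the mitochondrial share was 8.02, 7.57, 7.41 and 5.16% in WT vehicle and 8.02, 8.07, 8.74 and 8.51% in WT Dex. WT vehicle replicate 4 lay well below the rest, and the groups overlapped at replicate 1, which read 8.02% in both. In K154R the shares were 7.62, 8.27, 8.53 and 7.25% with vehicle and 8.49, 9.16, 7.26 and 6.67% with Dex, and in K154Q 8.14, 7.95, 6.68 and 5.84% and 8.01, 7.61, 7.47 and 6.07%. Vehicle and Dex overlapped in all 3 genotypes. In bulk RNA a lower share can come from fewer of these transcripts per cell, more of other transcripts, or a different mix of cells, which cannot be told apart here. The counting error was small beside this spread: the exact 95% binomial interval of WT vehicle replicate 3 was 7.40% to 7.42%, and it covers counting error only.

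The nuclear share ran the other way in several libraries. It was 0.72, 0.781, 0.722 and 0.881% in WT vehicle and 0.682, 0.792, 0.733 and 0.745% in WT Dex, with WT vehicle replicate 4, the library with the lowest mitochondrial share, at the top. In K154R it was 0.689, 0.898, 0.789 and 0.849% with vehicle and 0.664, 0.747, 0.865 and 0.841% with Dex, and in K154Q 0.726, 0.786, 0.78 and 0.884% and 0.675, 0.787, 0.719 and 0.836%. Replicate 1 was the lowest library of every group. As log2 of the ratio of mitochondrial to nuclear counts, the groups stood at 3.17 ± 0.42 and 3.50 ± 0.10 in WT with vehicle and Dex, 3.30 ± 0.18 and 3.34 ± 0.36 in K154R, and 3.16 ± 0.33 and 3.27 ± 0.30 in K154Q (SD, n = 4). Vehicle and Dex overlapped in each genotype.

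**Figure D2:**
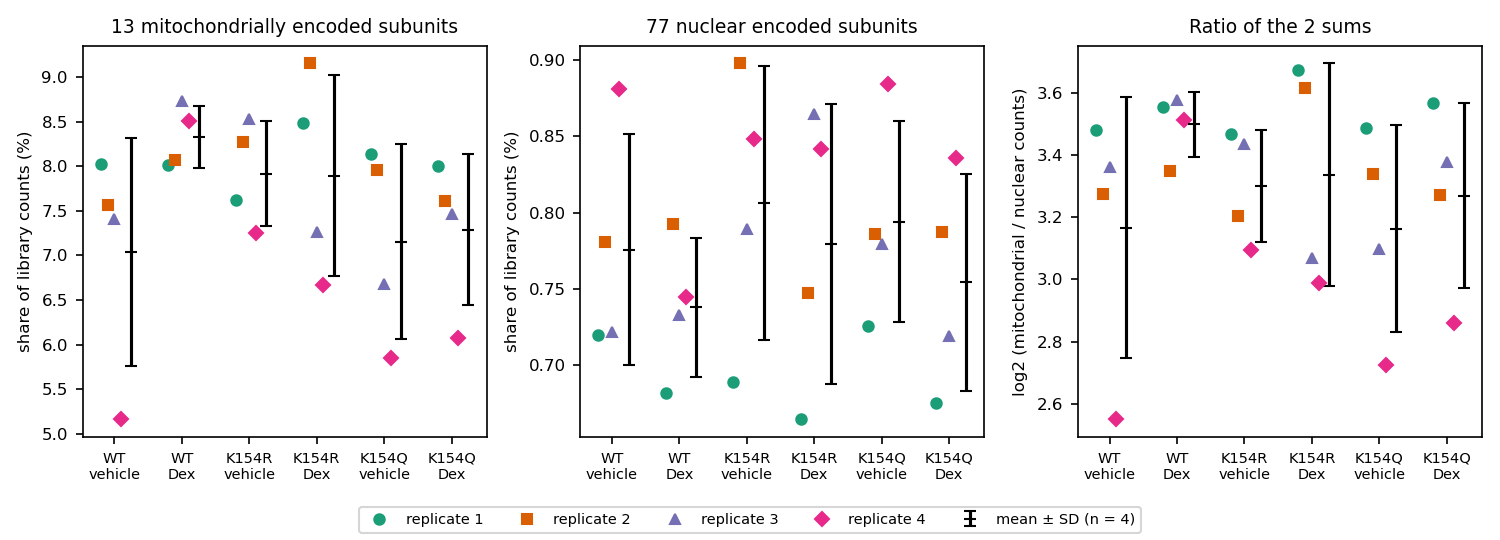
Share of library counts in % held by the 13 mitochondrially encoded (left) and the 77 nuclear encoded subunits (middle), and log2 of the ratio of the 2 sums (right), for every library. Symbols give the replicate number and bars the mean with SD of 4 libraries: replicate 1 is lowest for the nuclear share in 6 of 6 groups, and replicate 4 is lowest for the mitochondrial share in 5 of 6.

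In WT the difference of Dex and vehicle in the mitochondrial share was much smaller without 1 library. It was 1.29 percentage points in WT and 0.667 without WT vehicle replicate 4, and the log2 ratio differed by 0.33, or 0.13 without that library. WT libraries of the same number, which are not taken as pairs, differed in the log2 ratio by 0.08, 0.07, 0.22 and 0.96. In K154R the share differed by -0.0232 points with 2 of 4 pairs positive, and in K154Q by 0.134 points, also with 2 of 4 positive. Without 1 library these ran from -0.444 (without K154R Dex replicate 2) to 0.384 (without K154R Dex replicate 4) and from -0.303 (without K154Q vehicle replicate 4) to 0.540 (without K154Q Dex replicate 4), so that neither kept its sign. No p is given for these sums.

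None of the 90 subunits passed the test for a Dex response in any genotype (edgeR quasi-likelihood, Benjamini-Hochberg adjusted p under 0.05 over all 16196 genes). Mitochondrial mRNAs had positive fitted differences in WT cells and most nuclear mRNAs small negative ones, which did not pass the test. In WT the background was 26 genes called of 16196 (0.161%), in K154R 50 (0.309%), in K154Q 21 (0.13%) and in the mean response over the 3 genotypes 172 (1.06%), so the share over all genes would itself give about 1 or fewer of 90. At an unadjusted p under 0.05 edgeR counted 2, 0, 0 and 1 of the 90 in these 4 contrasts. With the replicate number as a block, which pairs the K154R and K154Q responses, 200 and 117 genes were called and 0 of the 90. The block gave 3 and 2 of the 90 at an unadjusted p under 0.05, against 1304 and 1011 of all genes. DESeq2 called 0 in each, with 5, 0, 0 and 1 at an unadjusted p under 0.05.

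MT-CO1, which carries the haem groups of complex IV, had the smallest p of the 90 in WT. For replicates 1 to 4 it read 17499.9, 18456, 17189 and 12248 CPM with vehicle and 17851, 21615, 20314 and 20078 CPM with Dex. The groups overlapped at replicate 1 with Dex, and WT vehicle replicate 4 was the lowest of all 24 libraries. The fitted log2 difference was 0.29 ± 0.14 (SE, 95% interval 0.0012 to 0.58, edgeR adjusted p = 0.9996). In K154R it read 16131, 19948, 18670.3 and 16724 CPM with vehicle and 18651, 22269, 15478 and 15715 with Dex, and in K154Q 17493, 18255, 14231 and 13534 and 17283, 16910.4, 15652 and 13981. The treatments overlapped with both receptor forms. The fitted log2 differences were 0.01 in both (intervals -0.27 to 0.30 in K154R and -0.28 to 0.29 in K154Q).

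All 13 mitochondrial mRNAs had a positive log2 difference in WT (0.19 to 0.29, median 0.27), against 25 of the 77 nuclear subunits (median -0.04) and a median of -0.01 over all genes. These 13 values come from the same libraries and, for the heavy strand, largely the same transcripts, so they are not 13 independent observations. The nuclear subunits also varied together between libraries (described further on), so their counts of signs are not independent observations either. Without WT vehicle replicate 4 the mitochondrial median was 0.14, and without WT vehicle replicate 1 it was 0.37. In K154R the median was -0.01 (4 of 13 positive) against -0.05 for the nuclear subunits (11 of 77 positive), and in K154Q 0.05 (10 of 13) against -0.07 (6 of 77). Single libraries turned these signs. The K154R mitochondrial median was -0.09 without Dex replicate 2 and 0.07 without Dex replicate 4, and the K154R nuclear median -0.15 without vehicle replicate 1 and 0.04 without vehicle replicate 2. In K154Q the mitochondrial median was -0.06 without vehicle replicate 4 and 0.15 without Dex replicate 4, and the nuclear one ranged from -0.13 to -0.03. The WT nuclear median was -0.08 without Dex replicate 2 and 0.03 without vehicle replicate 4.

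Averaged over the 3 genotypes, the 13 mitochondrial mRNAs had positive differences of 0.05 (MT-ND3) to 0.15 (MT-ND4L), with a median of 0.10. The nuclear subunits had a median of -0.06, and 69 of 77 were negative, against a median of -0.01 and 47.7% positive over all genes. The nuclear median was -0.08 without K154R vehicle replicate 1 and -0.02 without K154R vehicle replicate 2 (3 and 18 of 77 positive). The mitochondrial median was 0.055 without WT vehicle replicate 4 and 0.13 without WT vehicle replicate 1. By complex, 30 of 36 nuclear subunits were negative in complex I (median -0.06), 4 of 4 in complex II (-0.04) and 9 of 9 in complex III (-0.08). In complex IV 9 of 11 were negative (-0.04) and in complex V 17 of 17 (-0.06). Nuclear subunits varied together between libraries (median r of 0.78 between pairs, described further on), so these counts are not independent observations. The sizes are small: the 95% interval of 89 of the 90 lay within 0.5 on the log2 scale, a 1.41-fold change, in either direction. The exception was NDUFA7, the subunit with the fewest counts (-0.30 to 0.51). The width differed between subunits, with -0.10 to 0.05 for NDUFS1 and -0.18 to 0.40 for MT-ND5. Responses within a subunit's own interval are not resolved. Within single genotypes the intervals were wider. They lay within 0.5 for 1 of 13 mitochondrial and 74 of 77 nuclear subunits in WT, 11 and 74 in K154R, and 12 and 74 in K154Q.

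**Figure D3:**
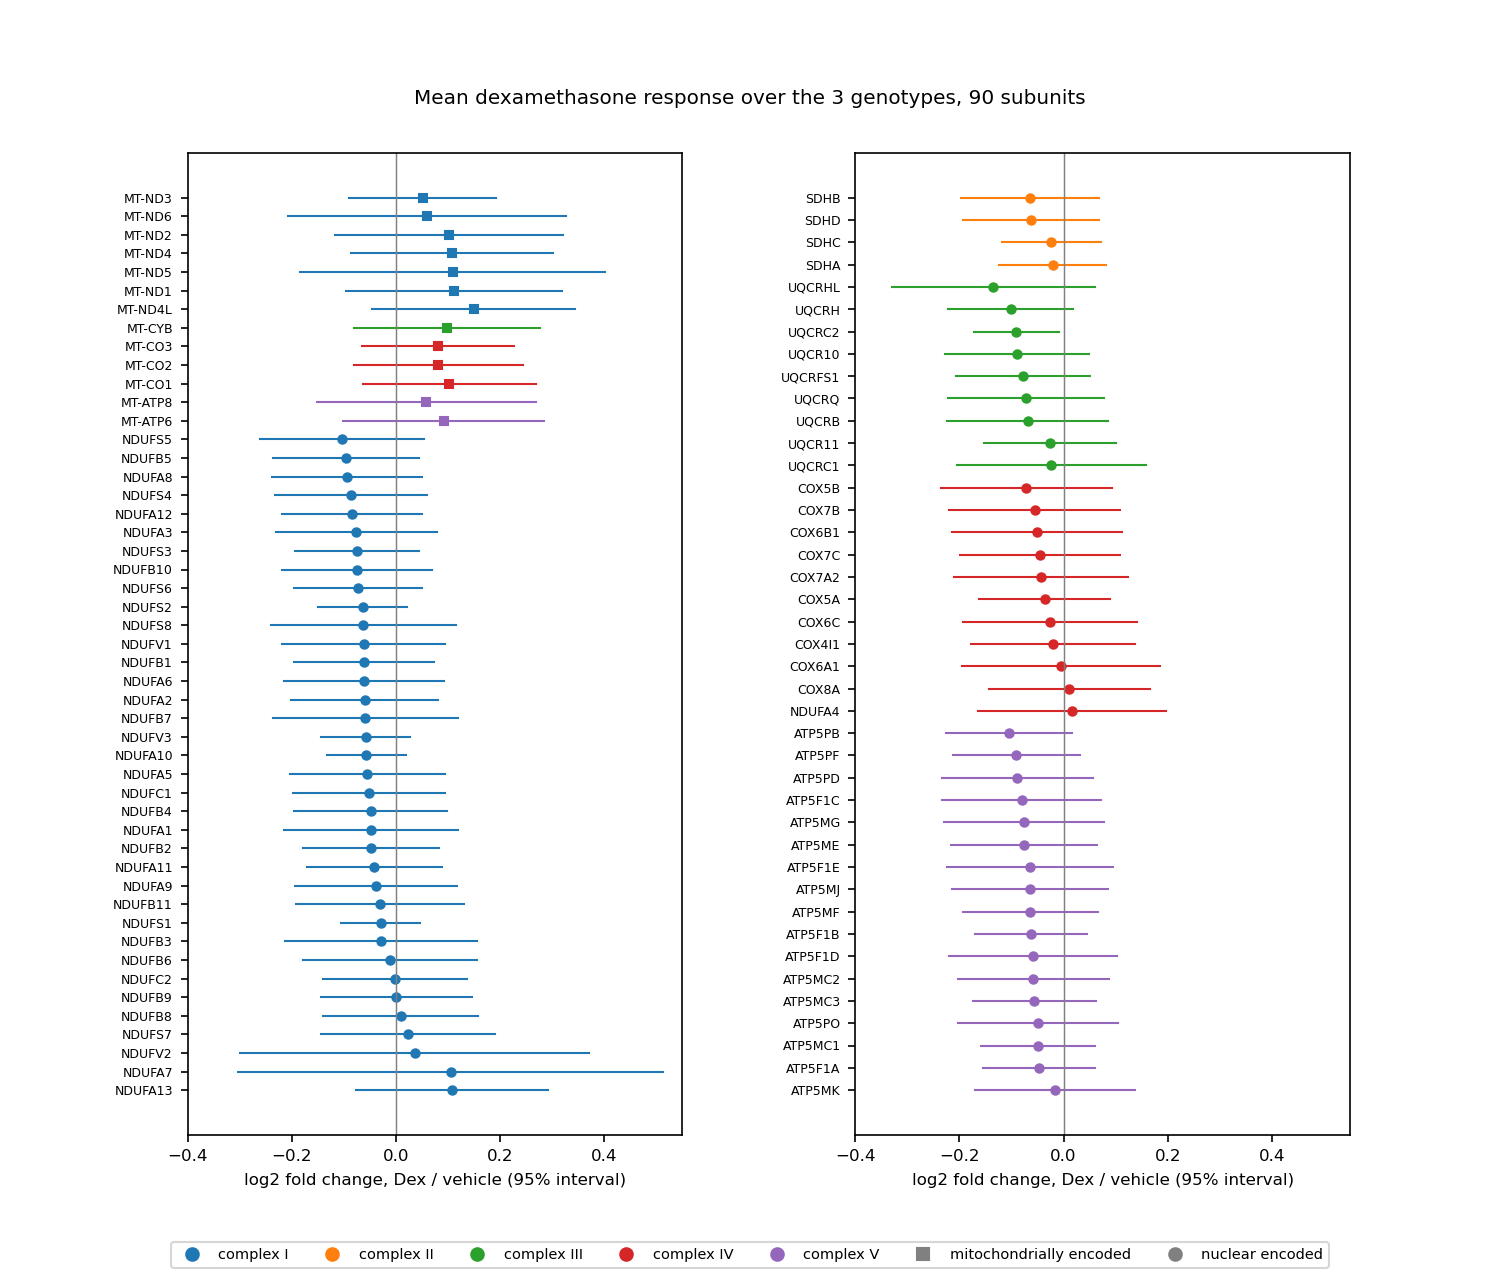
Fitted log2 fold change of Dex against vehicle, averaged over the 3 genotypes (x axis), for each of the 90 subunits (y axis), with 95% intervals. Squares are mitochondrially and circles nuclear encoded subunits, coloured by complex: the 13 squares lie right of 0, 69 of 77 circles lie left of 0, and every interval but that of UQCRC2 crosses 0.

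UQCRC2, a core protein of complex III, came closest to the threshold in the mean response. In WT it read 323, 358, 333 and 381 CPM with vehicle and 304, 346, 322 and 303 with Dex. In K154R it read 331, 377, 356 and 362 CPM with vehicle and 311, 334, 340.1 and 330.00 with Dex. In K154Q it read 325, 339.8, 345 and 362 CPM with vehicle and 319, 343, 341 and 344 with Dex. The ranges of the treatments overlapped in every genotype. Libraries of the same number were lower with Dex in 4 of 4 cases in K154R and 3 of 4 in K154Q, where the numbers pair the responses, and in 4 of 4 in WT, where they were not taken to. The group means were lower with Dex in all 3 genotypes (349 ± 26.2 and 319 ± 20.0 CPM in WT). The mean log2 difference was -0.09 ± 0.04 (SE, interval -0.17 to -0.01), with an edgeR adjusted p of 0.598. UQCRH, at -0.10 (adjusted p = 0.817), and the stalk subunit ATP5PB, also at -0.10 (adjusted p = 0.801), followed.

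In complexes I, II, IV and V the intervals of the members with the highest counts spanned 0. The mean log2 differences were -0.06 for ATP5F1B (interval -0.17 to 0.05), -0.02 for COX4I1 (-0.18 to 0.14), -0.06 for NDUFV1 (-0.22 to 0.10) and -0.02 for SDHC (-0.12 to 0.07). In complex II SDHB had the smallest p at -0.06 (-0.20 to 0.07), in complex IV COX5B at -0.07 (-0.24 to 0.09) and in complex I NDUFA10, an accessory subunit, at -0.06 (-0.13 to 0.02). None of these passed the test (edgeR adjusted p of 0.856 or more). The c subunit genes ATP5MC1, ATP5MC2 and ATP5MC3 had differences of -0.05, -0.06 and -0.06.

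The K154R and K154Q receptors address whether acetylation of the replaced lysine alters regulation of genes by Dex. No subunit passed the test for a difference of the responses between K154R or K154Q and WT, nor for a level that differed from WT within vehicle or within Dex, and the background over all 16196 genes was 0.0% in each of these 6 contrasts (edgeR, with 115 to 253 genes at an unadjusted p under 0.05). At an unadjusted p under 0.05 edgeR counted 0, 0, 1, 0, 0 and 1 of the 90 subunits in the response difference of K154R, that of K154Q, the vehicle levels of K154R and K154Q, and the Dex levels of K154R and K154Q. DESeq2 called none of the 90, with 0, 0, 3, 0, 0 and 3 at an unadjusted p under 0.05, and over all genes it called 1 in the last contrast and 0 in the other 5. With the replicate number as a block, which pairs the vehicle contrasts, 4 genes were called in each and 0 of the 90. At an unadjusted p under 0.05 the block gave 18 of the 90 (9 mitochondrial and 9 nuclear) for K154R in vehicle, with 893 of all genes, and 0 of the 90 for K154Q, with 578 of all genes. The contrasts share WT libraries. Doxycycline dose was set to match receptor protein and is given only as a range, so dose and genotype cannot be told apart in these contrasts.

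The medians of the mitochondrial mRNAs lay further from 0 than those of the nuclear subunits in most of these contrasts. The subunits of each set varied together between libraries, so the counts of signs below are not independent observations. For the response of K154R minus that of WT, 0 of 13 were positive (median -0.28) against 29 of 77 nuclear subunits (median -0.03), and for K154Q 0 of 13 (median -0.22) against 18 of 77 (-0.05). In vehicle, K154R read higher than WT for 13 of 13 (median 0.22) and 71 of 77 (0.10). MT-ND3, a membrane subunit of complex I, had the smallest p there, at 1279.7, 1141, 1063 and 878 CPM in WT vehicle and 1096, 1471, 1435 and 1265 CPM in K154R vehicle. The 2 groups overlapped, and the log2 difference was 0.27 ± 0.12 (SE, interval 0.03 to 0.52, edgeR adjusted p = 1.000). With Dex, K154Q read lower than WT for 13 of 13 (median -0.21) and 49 of 77 (median -0.02), with MT-CO1 at -0.32 ± 0.14 (interval -0.61 to -0.04, adjusted p = 1.000). The remaining levels lay closer to 0: in vehicle K154Q had 11 of 13 positive (median 0.01) and 58 of 77 (0.03), and with Dex K154R had 1 of 13 (-0.06) and 70 of 77 (0.07).

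Single libraries moved several of these medians, WT vehicle replicate 4 most of the mitochondrial ones. Without it the mitochondrial median was -0.15 for the K154R response difference, -0.08 for the K154Q response difference, 0.07 for K154R in vehicle and -0.14 for K154Q in vehicle. The last of these changed sign. For K154R with Dex the median ran from -0.15 to 0.03 as each library was left out in turn, and for K154Q with Dex from -0.27 to -0.12. The nuclear median of K154R in vehicle was 0.20 without K154R vehicle replicate 1 and 0.0098 without K154R vehicle replicate 2. For the K154R response difference the same libraries gave -0.13 and 0.05, and 6 to 66 of 77 nuclear subunits were positive as each library was left out. The other nuclear medians ranged from -0.12 to 0.00 for the K154Q response difference, -0.02 to 0.07 for K154Q in vehicle, 0.01 to 0.15 for K154R with Dex and -0.08 to 0.04 for K154Q with Dex.

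**Figure D4:**
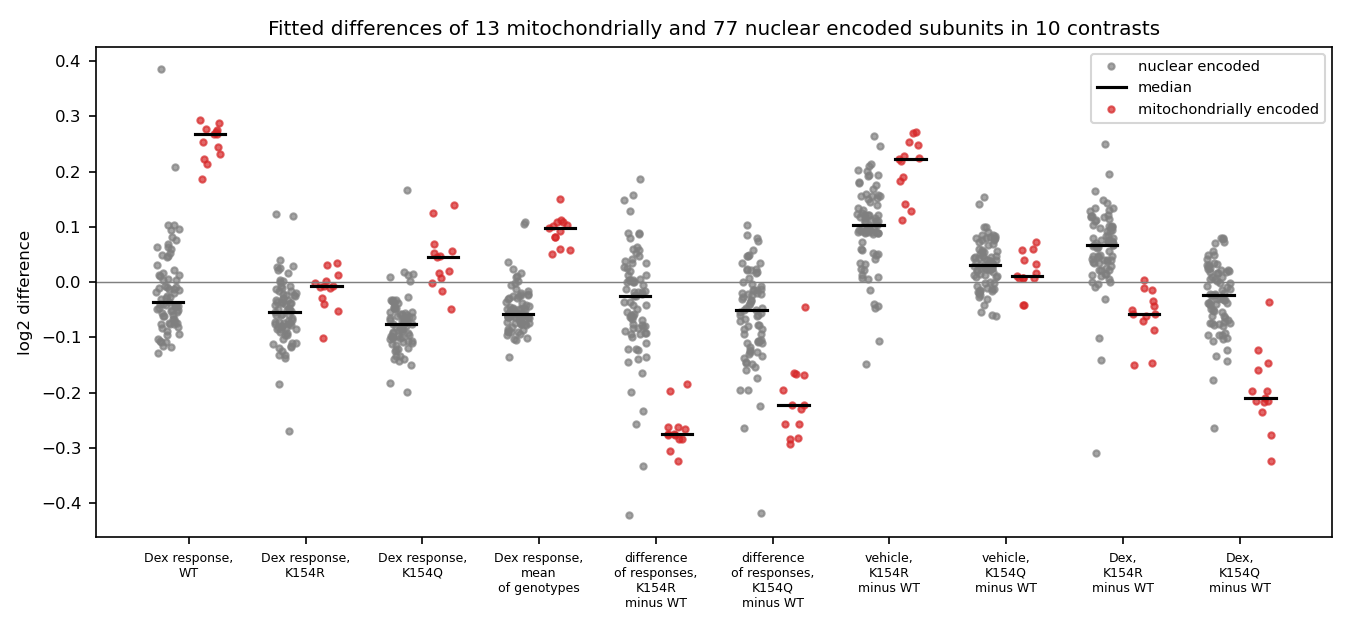
Fitted log2 differences (y axis) of the 77 nuclear (grey) and 13 mitochondrially encoded subunits (red) in the 10 contrasts (x axis), 1 point a gene, with the median as a line. The red median lies above the grey one in the WT response (0.27 against -0.04) and below it in both response differences (-0.28 against -0.03 and -0.22 against -0.05).

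Variation between replicates was the clearest pattern in these genes. Deviations are log2 CPM of a library minus the mean of its group, averaged over the 6 groups for each replicate number. In replicate 1, 75 of 77 nuclear subunits lay below their group means (median -0.16) and 12 of 13 mitochondrial mRNAs above them (median 0.14). In replicate 4 this was reversed, with 72 of 77 nuclear subunits above (median 0.08) and 13 of 13 mitochondrial mRNAs below (median -0.29). Replicate 2 had both above (65 of 77, median 0.12, and 11 of 13, median 0.12), and replicate 3 averaged near 0 (31 of 77 and 7 of 13 above). Single groups departed from these averages. In replicate 1, 6 of 13 mitochondrial mRNAs lay above in WT Dex and 4 of 13 in K154R vehicle. In replicate 4 of WT Dex 20 of 77 nuclear subunits lay above, and in replicate 2 of K154R Dex 38 of 77. Replicate 3 ran from 4 of 77 nuclear subunits above in WT vehicle to 71 of 77 in K154R Dex. Over all genes the medians, which scaling between libraries tends to hold near 0, were 0.01 or less in size. Of all genes 49.6% lay above in replicate 1 and 50.1% in replicate 4. Related lists, described further on, shared the direction of the nuclear subunits in replicates 1 and 4. The medians were -0.12 and 0.05 for mitochondrial ribosomal proteins, -0.13 and 0.09 for electron carriers, further subunits and paralogues, and -0.085 and 0.05 for assembly factors. Genes of mitochondrial transcription and RNA stability (-0.01 and -0.04) and nuclear regulators (0.03 and -0.003) did not. The numbers have no order, and the labels do not say what libraries of 1 number share.

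By complex, the nuclear subunits of complexes II, III, IV and V lay below in replicate 1 without exception (4, 9, 11 and 17 genes), with medians of -0.12, -0.17, -0.21 and -0.16, and the 2 genes above were in complex I. These were NDUFV2 and NDUFA7, members with few counts and exons shared with other genes. A group of 12 nuclear subunits lay below their means in replicate 2, against 65 above. Chosen after their values were seen, UQCRC1 and NDUFS8, core subunits of complexes III and I, were of this kind and had the largest deviations of the 77 in replicate 4 (0.29 and 0.27, above in 6 of 6 groups).

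UQCRC1 shows the size of this. In vehicle, replicates 1 to 4 read 256, 269, 293 and 391 CPM in WT, 246, 323, 292 and 369.8 in K154R and 257, 274, 303 and 375 in K154Q. With Dex they read 255, 301, 292 and 311 CPM in WT, 250.02, 288, 331 and 386 in K154R and 253, 279, 282 and 363 in K154Q. Replicate 1 was the lowest and replicate 4 the highest in each of the 6 groups. By contrast NDUFS1, the large iron-sulfur subunit of complex I, had the smallest spread within groups of the 90 (SD of log2 CPM 0.07, next to 0.07 for NDUFA10 and 0.08 for UQCRC2) and ran from 165 to 199.7 CPM over all libraries. The largest spread was in NDUFA7 (0.45) and NDUFV2 (0.39), which have about 1 CPM or less. The median SD within groups was 0.25 for the mitochondrial mRNAs, 0.18 for the nuclear subunits and 0.19 for all genes.

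MT-ND5 and its neighbour MT-ND6 ordered the replicates in another way than MT-CO2. MT-ND5, the distal pump subunit of complex I, read 5617, 3229, 4275 and 2662 CPM in replicates 1 to 4 of WT vehicle, 5671, 3501, 4428 and 3805 in K154R vehicle and 5435, 3674, 3854 and 2933 in K154Q vehicle. With Dex it read 5511, 2990.1, 4703 and 4745 in WT, 6158, 4395, 3497 and 3371 in K154R and 5514, 4033, 4936 and 3032 CPM in K154Q. Replicate 1 was the highest library in every group. The mean deviations of MT-ND5 were 0.45 in replicate 1 and -0.20 in replicate 2, those of MT-ND6 0.33 and -0.13, whereas those of MT-CO2 were -0.07 and 0.19. Both sets were low in replicate 4 (-0.30, -0.36 and -0.14). The mitochondrial ribosomal RNAs MT-RNR1 and MT-RNR2, which stood at 2.45% to 4.34% of counts together, deviated by a median of -0.21 in replicate 1 and 0.28 in replicate 2, the direction of MT-CO2.

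**Figure D5:**
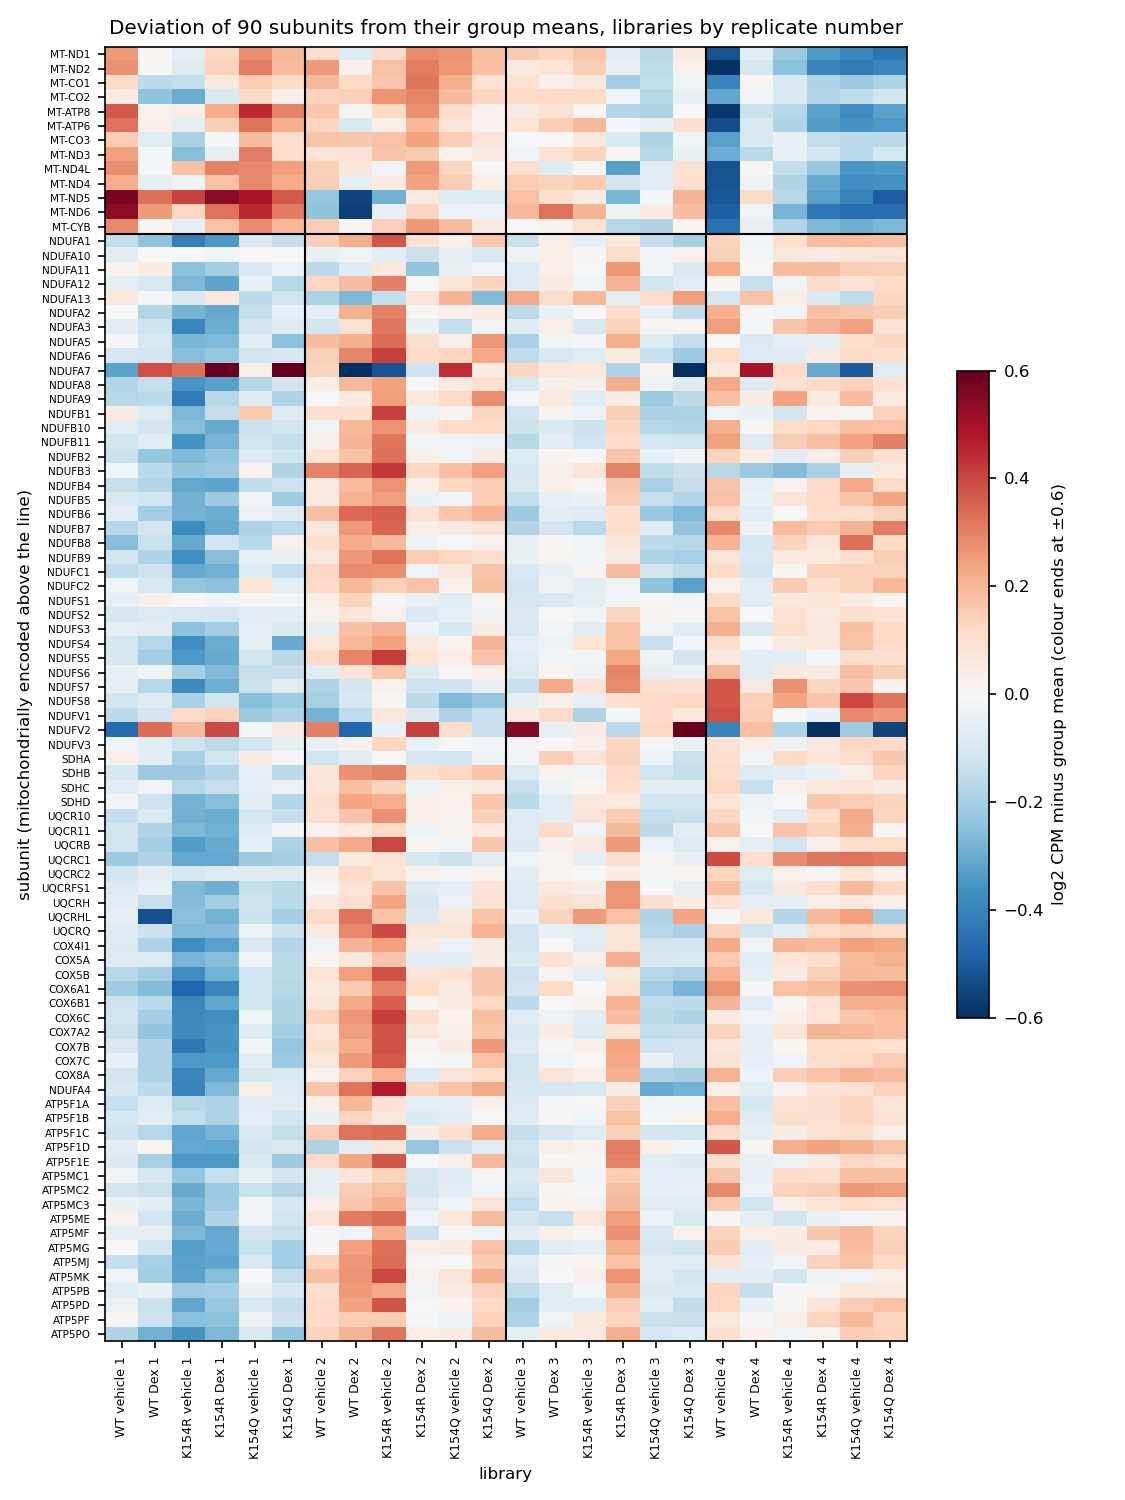
Deviation of log2 CPM from the group mean (colour, ending at 0.6 in either direction) for the 90 subunits (rows, mitochondrially encoded above the line) in the 24 libraries (columns, ordered by replicate number). Replicate 1 is mostly blue (low) for nuclear rows and red (high) for MT-ND5 and MT-ND6, and replicate 4 is blue for all 13 mitochondrial rows in each group but WT Dex, where 3 lie above the mean.

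As a description over the 24 libraries, which share the replicate pattern above, the Pearson correlation of deviations had a median of 0.81 between pairs of mitochondrial mRNAs (0.03 to 0.98), 0.78 between pairs of nuclear subunits (-0.72 to 0.99) and -0.36 between the 2 sets (-0.92 to 0.71). MT-ND1 and MT-ND2, neighbours on the genome, were the most alike mitochondrial pair (0.98), MT-ND4 was most like MT-ATP6 (0.98) and MT-CYB most like MT-ATP8 (0.97). MT-ND5 was most like MT-ND6 (0.925) and least like MT-CO2 (0.03). Of the 13, MT-ND5 had the most negative median correlation with the nuclear subunits (-0.80), and MT-CO2 the most positive (0.24).

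Gene length moved with the replicate pattern as well. The nuclear members are short, with a median of 2324 bases against 4444.5 over all tested genes, and over all genes longer genes had slightly higher deviations in replicate 1 (r = 0.15 across 16196 genes, which are not independent). In 4 ranges of length with edges at 421, 1418, 2324, 3904 and 12600 bases, the members' median deviation in replicate 1 was -0.16 in each, against -0.04, -0.07, -0.04 and 0.02 for 1578, 1738, 3379 and 8305 other nuclear genes of the same lengths. The members thus lay lower than other genes of like length in all 4 ranges, given here without a test. The part of length, RNA quality or culture in the replicate pattern was not tested.

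Genes that carry electrons for, assemble, express or regulate the chain were taken from lists. In the mean response to Dex, 0 of 21 tested electron carriers, further subunits and paralogues were called (median -0.06, edgeR, 0 at an unadjusted p under 0.05), 0 of 49 assembly factors (median -0.04, 2 unadjusted), and 0 of 29 genes of mitochondrial transcription and RNA stability (median -0.04, 2 unadjusted). Of 77 mitochondrial ribosomal proteins 0 were called (median -0.07, 3 positive, 5 unadjusted), and neither mitochondrial ribosomal RNA was called (MT-RNR1 0.11 and MT-RNR2 0.11). The median over all genes was -0.01.

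TFEB, a transcription factor that controls lysosomal and mitochondrial genes, was the 1 called gene of 17 tested nuclear regulators. Its mean log2 response was 0.74 ± 0.08 (SE, edgeR adjusted p = 2.48e-06), and it was also called within K154R and within K154Q. The other regulators did not pass, among them NRF1 at -0.08 (adjusted p = 0.876) and YY1 at -0.05 (0.874). MRPS25, a protein of the small mitochondrial ribosomal subunit, had a log2 difference of 0.23 (adjusted p = 0.108), COX19, a copper-handling assembly factor of complex IV, 0.19 (adjusted p = 0.455), and TRMT10C, a subunit of mitochondrial RNase P, -0.12 (adjusted p = 0.617). All 5 tested glucocorticoid control genes rose in the mean response, among them FKBP5 by 1.06 and TSC22D3 by 2.92 on the log2 scale. PDK4, which restrains entry of pyruvate into the mitochondrial cycle that feeds the chain, rose by 5.35 ± 0.56 (SE). TSC22D3 and PDK4 had few counts, with means of 0.792 and 0.238 CPM. All 9 hepatocyte markers failed the test, with AFP closest (0.18, adjusted p = 0.119).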

How the data were processed

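Poly(A) RNA of 24 HepG2 libraries, 6 groups of 4 by the titles in the labels, was analysed from the raw counts per gene that the authors deposited. Per the submitters' processing notes, bcl2fastq 2.20.0.422, cutadapt 3.7, STAR 2.7.6a and featureCounts 2.0.3 were used with GRCh38.p13. How strand and multi-mapping reads were treated, and which annotation was used, was not given in these sources. Per the labels' protocols, directional libraries used 300 ng RNA (integrity number 8.6 or higher). The table names no mitochondrial gene with the prefix MT-, so these genes were matched by Ensembl identifier through a table of gene names. Members, lists and tests were chosen with earlier results of these data known. Named genes were all mitochondrial members, per complex the nuclear member with the most counts and that with the smallest p, isoform and near-copy sets, the extremes of spread, and up to 3 per list by p.

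Counts were fitted with edgeR 4.0.16 (limma 3.58.1, R 4.3.3): filterByExpr, TMM, the quasi-likelihood test over 6 group means without a replicate block, and Benjamini-Hochberg adjustment over 16196 genes at 0.05. CPM used TMM-scaled totals, log2 CPM a prior count of 2, and SE is the absolute log2 difference over the root of F. P-values measure the spread between these replicates. Alternatives were a replicate block, DESeq2 1.42.0, RLE scaling, no low-count filter, library sizes without mitochondrial genes, and each library left out in turn. The scripts were tested on simulated data. Same-number libraries deviated together (every r over 0.1) in the K154R response (lowest r 0.264) and the K154Q response (0.381). They also did in the vehicle levels of K154R (0.310) and K154Q (0.306) against WT. Numbers were taken to pair those contrasts, and not elsewhere. In the WT response the lowest r was 0.0504, but 3 of 4 pairs were over 0.1 and the median r was 0.402. The median was 0.345 in the K154R response. In the mean response 55 of 60 pairs were over 0.1, with a lowest r of -0.0459.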

Additional observations from a re-analysis of the deposited data

Results flagged for a closer look

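Of 144 sets of 4 libraries examined, for shares and named members in each group, 5 held a library that stood apart from the other 3 by more than Dixon's 95% limit for groups of 4 allows. Chance alone marks about 1 in 20 such sets. MT-ND4 was low in WT vehicle replicate 4 at 9196 CPM, against 14588 to 15353 in the other replicates, and all 13 mitochondrial mRNAs were lowest of WT vehicle in that library. MT-ND4 was high in WT Dex replicate 3 at 17848 CPM (others 15641 to 15920). MT-CYB was low in WT Dex replicate 4 at 4020.5 CPM (others 4201 to 4226). UQCRC2 was low in K154Q Dex replicate 1 at 319 CPM (others 341 to 344). NDUFA7 was high in K154R Dex replicate 1 at 0.715 CPM (others 0.346 to 0.402), a gene with few counts.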

How the results depend on the processing

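No subunit was called in any of the 10 contrasts under RLE size factors, without a filter, with DESeq2, with library sizes that leave out the mitochondrial genes, with the replicate block, or without any 1 library. With the replicate block 0 members were called and the smallest adjusted p was 0.0773 (UQCRC2, mean response), while the count over all genes in the mean response went from 172 to 685 (325 without a filter, 256 with DESeq2). The block also took the all-gene counts from 26 to 128 in WT, 50 to 200 in K154R and 21 to 117 in K154Q. At an unadjusted p under 0.05 the block gave 13 members in the WT response (12 mitochondrial, 1654 of all genes), 10 in the mean response (2739), 11 and 5 in the response differences of K154R and K154Q (354 and 541), and 3 and 10 in their Dex levels (942 and 1244); the numbers are not taken to pair these contrasts. With nuclear genes other than members as the denominator, the mitochondrial share was 8.63% and the nuclear share 0.877%. As a mean of log2 CPM over members the log2 ratio was 6.00, which weights genes equally. Leaving out 1 library turned the sign of some mean responses near 0, which ranged from -0.049 to 0.015 for COX4I1, -0.043 to 0.035 for COX6A1, -0.073 to 0.0044 for COX7A2, -0.020 to 0.044 for COX8A, -0.049 to 0.12 for NDUFV2 and -0.19 to 0.12 for COL1A1. Outside the members, COX19 (adjusted p = 0.000534 with the block), AFP (0.00873 with the block, 0.00435 with DESeq2) and MRPS25 (0.000685 with the block, 0.0140 without a filter, 0.0497 with DESeq2, 0.0359 without WT Dex replicate 2) passed under an alternative. The counting error of the shares was smaller than the spread between replicates.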
